A study of Mus musculus with 10 samples.

Results

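The genes described here are 7 neighbours on mouse chromosome 7: Gpr4, Klc3, Vasp, Eml2, Opa3, Ercc1 and Ercc2. They were listed by name from a stretch around Gpr4 and Klc3 that runs from Irf2bp1 (start 19004065) to Zfp296 (end 19580656) in genome build mm10. Gpr4 and Klc3 were picked because their RNA was higher in pro-B cells with the Mta2 knockout (KO). The deposited tables hold 35 genes of that stretch and 23420 genes in all. Of the 7 genes, 7 passed the filter on low counts, as did 20 of the 28 other genes of the stretch and 14161 genes in all.

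RNA was sequenced from 10 libraries of B cell precursors sorted from the bone marrow of C57BL/6 mice. Pro-B cells, the earlier stage, were sorted as B220+ IgM- CD43+ cells, and small pre-B cells, a later stage that rearranges the immunoglobulin light chain, as B220+ IgM- CD43- cells of small size. The groups were pro-B Mta2 KO (2 libraries), pro-B control (2), small pre-B Mta2 KO (3) and small pre-B control (3). The labels call the knockout genotype Mta2_VavKO and the other genotype only control, with no further allele and no age of the mice. The promoter of Vav is active in blood-forming cells of all lineages, so the genotype label does not limit the deletion to B cells. Mta2 is a subunit of the NuRD complex, a repressor of transcription that combines histone deacetylases with a nucleosome remodelling enzyme. The labels do not say which libraries came from separate animals, so p-values measure the spread between these libraries, which may be technical.

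Gpr4 encodes a receptor of the cell surface that couples to G proteins when protons bind it, and is best known from the cells that line blood vessels. Klc3 encodes a light chain of kinesin-1, the motor that carries cargo along microtubules, and is best known from testis. Vasp encodes a protein that helps actin filaments grow, Eml2 a protein that binds microtubules, and Opa3 a mitochondrial protein. Ercc1 and Ercc2 encode parts of nucleotide excision repair: ERCC1 is a subunit of the nuclease that cuts beside a lesion, and ERCC2 (XPD) is a helicase of the transcription factor TFIIH.

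Along the chromosome the order is Eml2 (chr7:19181170-19206482), Gpr4 (chr7:19212538-19224176), Opa3 (chr7:19228389-19246817), Vasp (chr7:19256930-19271854), Ercc1 (chr7:19345071-19356524), Ercc2 (chr7:19382039-19395692) and Klc3 (chr7:19394440-19399856), in mm10 coordinates of the deposited tables. The 7 genes span 218687 bases, with 5 on the plus strand and 2, Vasp and Klc3, on the minus strand. Between the end of Gpr4 and the start of Klc3 lie 170263 bases and 10 other genes. The 3' ends of Klc3 and Ercc2 overlap on opposite strands: they share 585 exon bases, which are 32.8% of the exon bases of Klc3 and 16.5% of those of Ercc2. Reads were counted without regard to strand, and the counting command carries no option that lets a read count for more than 1 gene. Counts of Klc3 and Ercc2 therefore come with less certainty than those of the other genes, as do those of Ercc1, which shares 106 exon bases with Cd3eap.

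Promoter sequences are shown for Gpr4 and Klc3, the genes the stretch was chosen for, and for Opa3, the direct neighbour of Gpr4 and the gene among the 7 whose promoter holds the octamer. They cover 300 bases each, most of them upstream of the RefSeq start (GRCm38.p6, which has the coordinates of mm10), and are written 5′ to 3′ on the strand of the gene. Capitals mark CACCTG, a form of the E-box bound by E proteins, in Gpr4 (as CAGGTG on the printed strand) and in Klc3, and the octamer ATGCAAAT (as ATTTGCAT) in Opa3. The 3 windows are chr7:19212288-19212587 on the plus strand for Gpr4, chr7:19404055-19404354 on the minus strand for Klc3 and chr7:19228139-19228438 on the plus strand for Opa3.
Gpr4: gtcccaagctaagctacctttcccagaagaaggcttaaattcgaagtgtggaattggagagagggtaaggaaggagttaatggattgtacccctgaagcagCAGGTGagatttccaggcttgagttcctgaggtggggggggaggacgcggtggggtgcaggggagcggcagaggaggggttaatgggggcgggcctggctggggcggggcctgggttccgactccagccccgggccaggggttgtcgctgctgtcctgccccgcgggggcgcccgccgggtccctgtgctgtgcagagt
Klc3: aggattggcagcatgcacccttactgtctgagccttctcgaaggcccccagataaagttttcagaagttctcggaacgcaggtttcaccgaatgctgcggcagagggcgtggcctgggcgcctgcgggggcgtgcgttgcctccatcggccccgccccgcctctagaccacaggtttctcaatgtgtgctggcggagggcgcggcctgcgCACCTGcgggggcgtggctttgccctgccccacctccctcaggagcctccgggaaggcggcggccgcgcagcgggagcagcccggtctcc
Opa3: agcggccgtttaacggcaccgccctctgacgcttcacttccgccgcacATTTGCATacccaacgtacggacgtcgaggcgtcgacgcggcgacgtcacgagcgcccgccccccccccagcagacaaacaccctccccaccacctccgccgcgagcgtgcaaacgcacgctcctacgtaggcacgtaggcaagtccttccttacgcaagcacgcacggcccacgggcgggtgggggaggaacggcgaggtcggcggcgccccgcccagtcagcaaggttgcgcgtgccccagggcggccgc

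All 7 genes matched the RefSeq promoter table, Eml2 with 2 promoters. On either strand, CACCTG was present in 1 place each in the promoters of Gpr4 and Klc3 and in 1 of the 2 Eml2 promoters, and in 20.2% of the 32851 mouse promoters of the same length. The octamer ATGCAAAT, the element at which OCA-B acts as a coactivator, was present in 1.74% of all promoters and, of the 7 genes, in Opa3. GGGCGG, the GC box, was present in Gpr4, Klc3, Opa3, Ercc1, Ercc2 and 1 of the Eml2 promoters, and in 35.7% of all promoters. TGGGAA, the core of Ikaros sites, was present in Gpr4, Ercc1 and the other Eml2 promoter, and in 25.6% of all promoters. The share of G and C was 64% in the Gpr4 window, 68% in the Klc3 window and 70.3% in the Opa3 window. The Klc3 window belongs to a RefSeq start 4248 bases away from the start of the Klc3 model that was counted. A match is a run of letters and not a shown binding site, and no binding was measured.

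Levels are given as counts-per-million scaled by trimmed means of M values (TMM-scaled CPM, written CPM), and per kilobase of exon where genes are set side by side. Libraries held 17805507 to 52127004 counts, and 3 counts corresponded to 0.0576 to 0.168 CPM. Mta2 itself (chr19:8941920-8952300) had 163 and 166 CPM in pro-B KO libraries, against 436 and 375 CPM in pro-B control libraries. In small pre-B cells Mta2 had 199, 179 and 198 CPM with the knockout, against 438, 246 and 412 CPM in controls, so every KO library was below every control library of its cell type. Mta2 RNA was thus lower but not absent, and its protein was not measured here. Its log2 fold change was -0.93 ± 0.19 in small pre-B cells (SE, edgeR adjusted p 0.042), a call that held in 7 of the 19 alternative fits. In pro-B cells it was -1.31 ± 0.24 and did not pass (SE, edgeR adjusted p 0.212). Some libraries stood apart. Small pre-B KO 1 and 2 had 2518 and 2942 CPM of Xist, the RNA that silences an X chromosome in female cells, against at most 31.4 CPM in each of the others. Small pre-B control 3 had 1.401% of its counts in Malat1, a nuclear RNA, against at most 0.290% in each of the others, and its file header carries another number than its title. Of B cell markers, Cd79a, a signalling chain of the B cell receptor, averaged 283 ± 72.7 CPM in pro-B KO and 358 ± 26.7 CPM in pro-B control libraries (SD, n = 2 each), and 1423 ± 239.6 CPM in small pre-B KO and 1304 ± 298 CPM in small pre-B control libraries (SD, n = 3 each). The pro-B sort also held abundant RNA of other cells: Siglech of plasmacytoid dendritic cells averaged 1819 ± 105 CPM in pro-B KO and 1622 ± 71.7 CPM in pro-B control libraries (SD, n = 2 each), against at most 13.7 CPM in any small pre-B library.

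Pro-B KO against pro-B control is the contrast in which Gpr4 and Klc3 were chosen, so its values are a description with no test. Gpr4 and Klc3 were higher in pro-B KO libraries by about 10.3-fold and 4.83-fold, and the 5 neighbours differed by at most 1.34-fold.

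Gpr4, the proton-sensing receptor, had 64.2 and 67.6 CPM in pro-B KO libraries, against 6.76 and 6.06 CPM in pro-B control libraries. These values rest on 3527 and 3409 counts in pro-B KO libraries and 354 and 337 counts in pro-B control libraries. Both KO libraries lay far above both control libraries, and within each group the libraries were close to each other. The fitted log2 fold change was 3.36, and it lay between 3.28 and 3.44 in the 19 alternative fits. Those fits reuse the pro-B libraries in which Gpr4 was chosen, so the narrow range is no support for the difference.

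Klc3, the kinesin light chain, had 9.53 and 10.2 CPM in pro-B KO libraries, against 1.87 and 2.21 CPM in pro-B control libraries. The groups did not overlap, and the fitted log2 fold change was 2.27. Ercc2, which shares exon bases with Klc3, had 51.2 and 47.7 CPM in pro-B KO libraries, against 52.9 and 52.6 CPM in pro-B control libraries. Its log2 fold change of -0.09 has the opposite sign to that of Klc3.

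Vasp, the actin regulator, had 281 and 286 CPM in pro-B KO libraries, against 208 and 217 CPM in pro-B control libraries, a log2 fold change of 0.42. Eml2, the microtubule binder, had 35.4 and 40.2 CPM in pro-B KO libraries, against 32.7 and 33.6 CPM in pro-B control libraries, a log2 fold change of 0.19. For both genes all KO values exceeded all control values, and for Eml2 the gap between the groups was smaller than that between the KO libraries. Opa3, which lies between Gpr4 and Vasp, had 33.6 and 32.0 CPM in pro-B KO libraries, against 38.0 and 35.3 CPM in pro-B control libraries, a log2 fold change of -0.16. Ercc1, the repair nuclease subunit, had 16.4 and 15.3 CPM in pro-B KO libraries, against 21.9 and 19.61 CPM in pro-B control libraries, a log2 fold change of -0.39. For both of these genes the KO values lay below all control values.

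In all, 4 of the 7 genes had both KO libraries above both control libraries and 3, Opa3, Ercc1 and Ercc2, had both below, while 55.5% of all tested genes did not overlap between these groups in one direction or the other (27.4% higher and 28.1% lower). Of the 7, 2 genes, Gpr4 and Klc3, were also at least 4-fold higher, as were 1.02% of all tested genes. Since this contrast chose the genes, nothing is read from these counts. The median log2 fold change was 0.19 over the 7 genes, 0.01 over the 20 other tested genes of the stretch and -0.01 over all tested genes. The other genes of the stretch lay between -0.50 and 0.97, so that Gpr4 and Klc3 stood above every other tested gene of the stretch. The upper value belongs to Nkpd1, with 7 and 16 counts in pro-B KO libraries against 7 and 5 counts in pro-B control libraries. Of the genes directly beside them, Eml2 and Opa3 flank Gpr4, while Mir343, a microRNA gene inside Ercc2, had a log2 fold change of -0.11 and Ckm, on the far side of Klc3, and Mir330, inside Eml2, were too low to test.

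**Figure D1:**
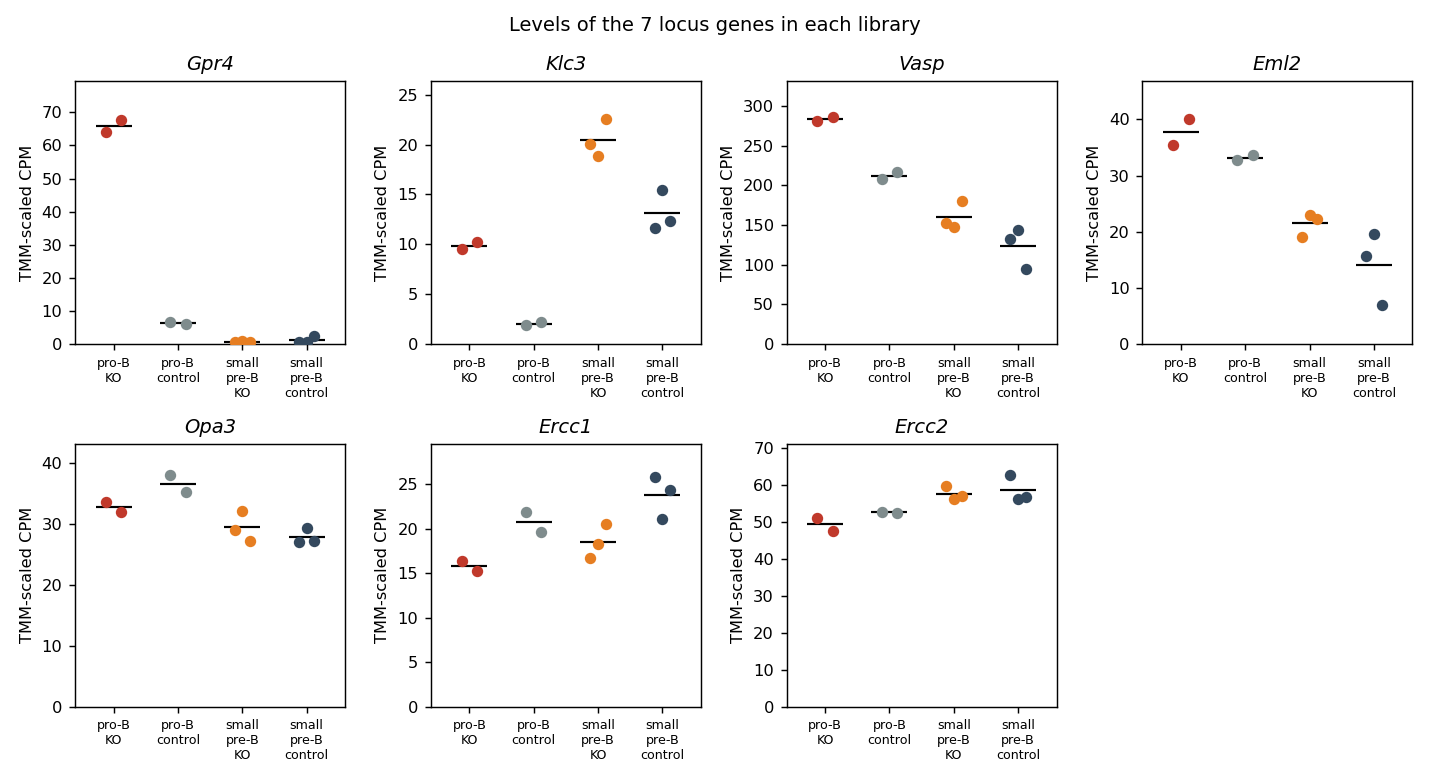
Levels of the 7 genes in each of the 10 libraries, in TMM-scaled CPM on linear axes that start at 0, with 1 panel per gene. Points are libraries and bars are group means. Gpr4 is high in pro-B KO libraries (64.2 and 67.6 CPM) and at most 6.76 CPM elsewhere, Klc3 is highest in small pre-B KO libraries, and Ercc2 varies least between groups.

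**Figure D2:**
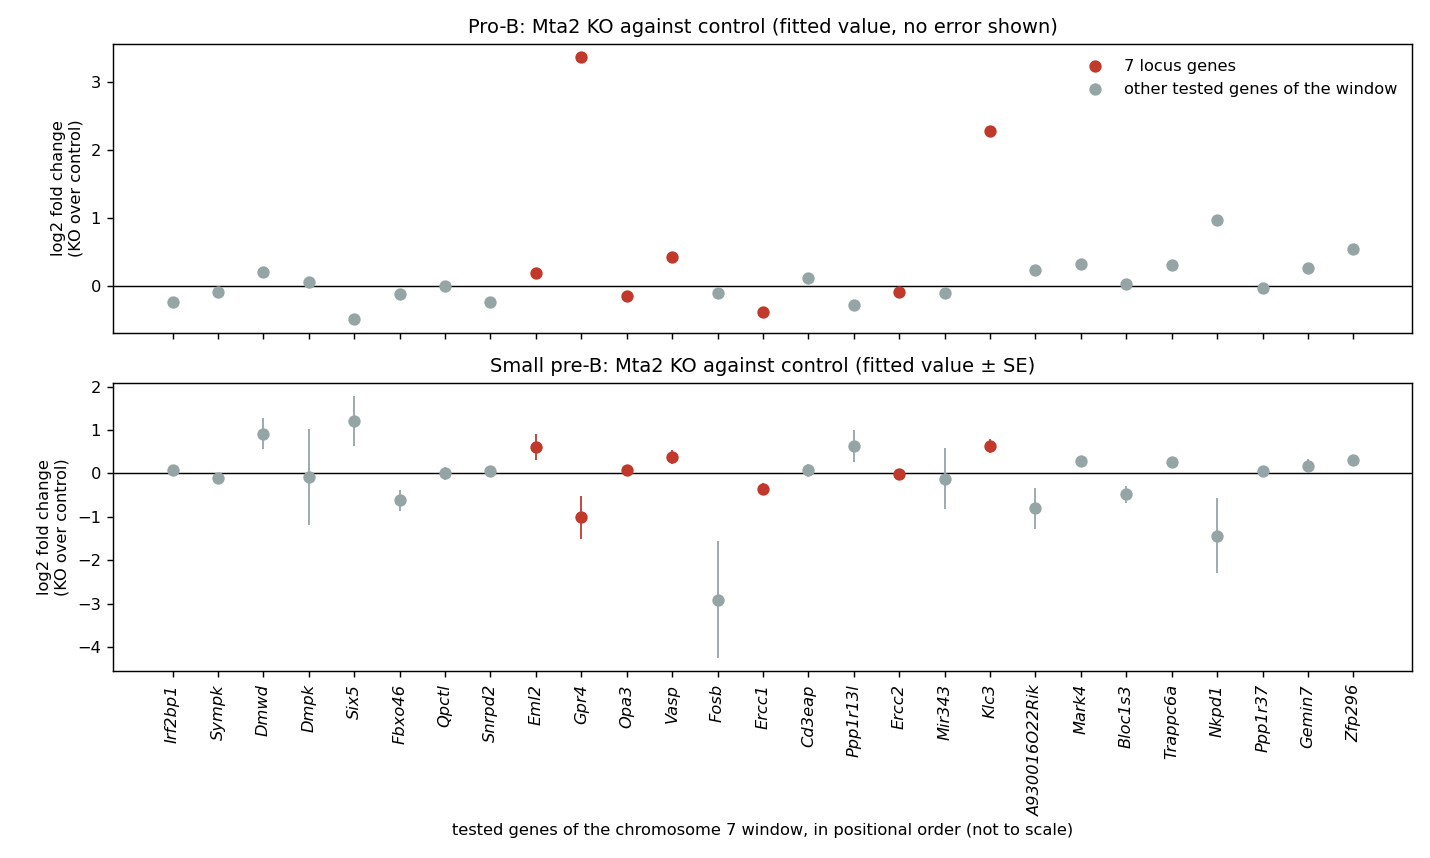
Fitted log2 fold changes of KO over control for the 27 tested genes of the chromosome 7 stretch in positional order, for pro-B cells (upper panel, without error since the genes were chosen there) and small pre-B cells (lower panel, with SE). In the upper panel Gpr4 (3.36) and Klc3 (2.27) lie above all others, and in the lower panel Gpr4 is at -1.01 and Klc3 at 0.64.

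RNA of other cell types differed between the same pro-B libraries. The summed level of 10 myeloid and granulocyte markers was 10170 and 15090 CPM in pro-B KO libraries, against 6308 and 6489 CPM in pro-B control libraries, and 10 of 10 were higher in both KO libraries than in both control libraries, as were 27.4% of all tested genes. The summed level of 10 T cell markers was 525 and 485 CPM in pro-B KO libraries, against 346 and 417 CPM in pro-B control libraries, with 9 of 10 higher in both KO libraries (27.4% of all tested genes). Of 10 endothelial markers, the cells in which Gpr4 is best known, the sum was 476 and 545 CPM in pro-B KO libraries, against 396 and 385 CPM in pro-B control libraries. Of the endothelial markers, 5 of the 8 tested were higher in both KO libraries (27.4% of all tested genes), while Cldn5 was at 0 in all 4 pro-B libraries and Tek was at or below 0.218 CPM. Most of the endothelial sum was Pecam1, with 206 ± 13.0 CPM in pro-B KO and 178 ± 4.53 CPM in pro-B control libraries (SD, n = 2 each), and Cdh5, with 200 ± 40.7 CPM in pro-B KO and 134 ± 28.2 CPM in pro-B control libraries. Pecam1 averaged more in small pre-B control libraries (340 ± 62.3 CPM, SD, n = 3), so its RNA was not particular to the pro-B sort. Eng and Kdr averaged 76.7 and 24.8 CPM in pro-B KO libraries, against 62.3 and 14.0 CPM in pro-B control libraries. Tie1, Emcn, Esam and Vwf were at most 1.86 CPM in any pro-B library. Plasmacytoid dendritic cell markers summed to 3831 and 4216 CPM in pro-B KO libraries, against 3722 and 4008 CPM in pro-B control libraries. Of these 8 markers, 2 were higher in both KO libraries (Siglech and Ccr9), as were 27.4% of all tested genes. Another 3 were lower in both, as were 28.1% of all tested genes. Of these 3, Klk1 averaged 7.01 ± 1.36 CPM in pro-B KO and 85.4 ± 21.8 CPM in pro-B control libraries, Cd209d 5.06 ± 0.618 CPM in pro-B KO and 53.8 ± 2.997 CPM in pro-B control libraries, and Cd209a 25.5 ± 0.543 CPM in pro-B KO and 89.3 ± 7.71 CPM in pro-B control libraries (SD, n = 2 each). Early B cell markers summed to between 2122 and 2779 CPM in pro-B KO libraries, against 2520 to 2751 CPM in pro-B control libraries. Natural killer markers summed to between 368 and 555 CPM in pro-B KO libraries, against 488 to 562 CPM in pro-B control libraries. Stromal markers summed to 8.35 and 51.9 CPM in pro-B KO libraries, against 4.604 and 5.11 CPM in pro-B control libraries. The part of these other cells in the levels of Gpr4, Klc3 and Vasp was not tested, and in bulk RNA fewer cells of a type cannot be told apart from less RNA per cell.

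**Figure D3:**
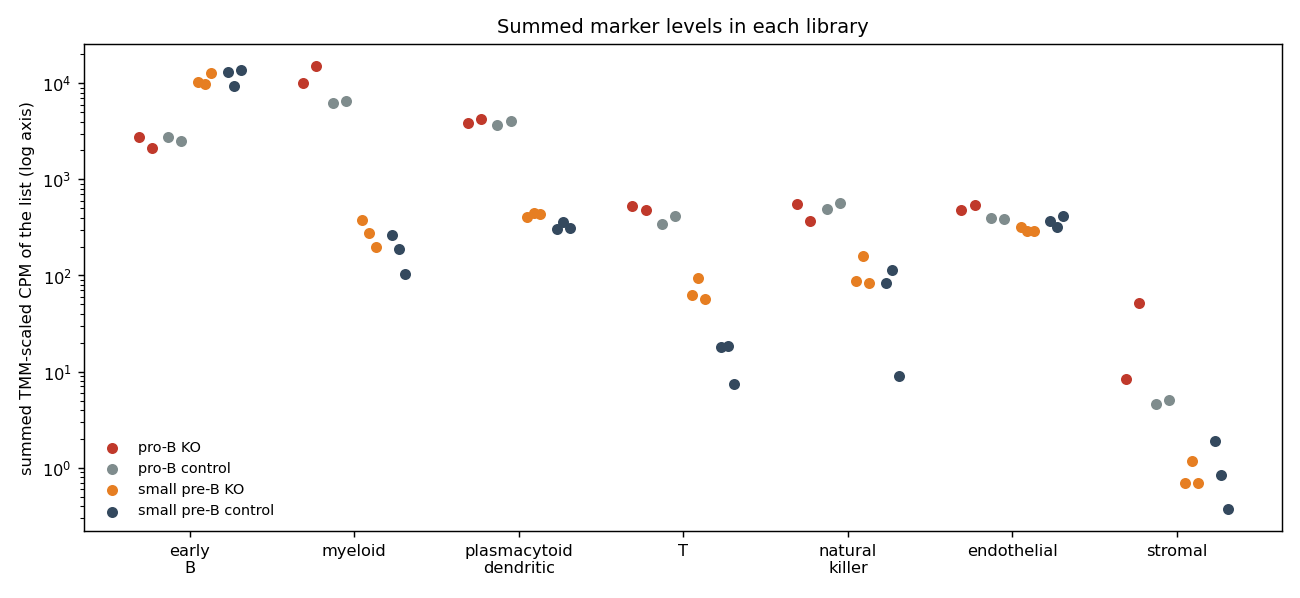
Summed TMM-scaled CPM of 7 marker lists in each library, on a log axis, with 1 point per library. Myeloid sums are 10170 and 15090 CPM in pro-B KO libraries and 6308 and 6489 CPM in pro-B control libraries, and at most 376 CPM in any small pre-B library, where early B cell sums are highest.

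Small pre-B KO against small pre-B control rests on libraries that did not enter the choice of Gpr4 and Klc3, and it asks how the same 7 genes behaved at the later stage. None of the 7 passed the edgeR quasi-likelihood test at an adjusted p of 0.05 (0 of 7), where 3.02% of all tested genes were called (1.89% higher and 1.14% lower). At an unadjusted p under 0.05 there were 3 of 7, Klc3, Vasp and Ercc1, against 24.7% of all tested genes. The DESeq2 Wald test called 1 of the 7, Klc3, and 1852 genes in all, against 428 with edgeR. The groups did not overlap for 3 of the 7, with Klc3 and Vasp higher and Ercc1 lower in KO libraries, against 25% of all tested genes.

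Klc3 had 20.1, 18.9 and 22.5 CPM in the small pre-B KO libraries, against 11.7, 15.5 and 12.3 CPM in small pre-B control libraries. All 3 KO libraries lay above all 3 control libraries. The log2 fold change was 0.64 ± 0.16 (SE) with an adjusted p of 0.0639 in edgeR, so Klc3 did not pass. The adjusted p ranged from 0.00433 to 0.21 over the alternatives: it was 0.00433 in the DESeq2 Wald test and 0.0243 in edgeR without small pre-B control 2, and above 0.05 in the other 17.

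Gpr4 had 0.519, 0.751 and 0.653 CPM in the small pre-B KO libraries, against 0.613, 0.685 and 2.44 CPM in small pre-B control libraries. These are 9, 19 and 14 counts in KO libraries and 11, 17 and 86 counts in control libraries. The groups overlapped and 1 library, control 3, was high. The log2 fold change was -1.01 ± 0.50 (SE, edgeR adjusted p 0.242), and it was -0.005 with an adjusted p of 1 without control 3. The sign is opposite to that in pro-B cells, and the difference between the cell types was not tested because it holds the contrast that chose the gene.

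Vasp had 152, 148 and 181 CPM in the small pre-B KO libraries, against 132, 144 and 94.0 CPM in small pre-B control libraries. The groups did not overlap, by a margin of a few CPM between KO 2 and control 2, and the log2 fold change was 0.38 ± 0.16 (SE, edgeR adjusted p 0.175). Eml2 had 19.1, 23.0 and 22.3 CPM in the small pre-B KO libraries, against 15.7, 19.62 and 6.99 CPM in small pre-B control libraries. Control 3 was again the farthest from the rest for both genes. The log2 fold change of Eml2 was 0.61 ± 0.30 (SE, edgeR adjusted p 0.247), and without control 3 it was 0.28 for Eml2 and 0.21 for Vasp.

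Ercc1 had 16.7, 18.3 and 20.6 CPM in the small pre-B KO libraries, against 25.9, 21.2 and 24.4 CPM in small pre-B control libraries. All 3 KO libraries lay below all 3 control libraries, with a log2 fold change of -0.36 ± 0.13 (SE, edgeR adjusted p 0.14). Ercc2, which acts in the same repair pathway, had 59.7, 56.4 and 57.1 CPM in the small pre-B KO libraries, against 62.9, 56.4 and 56.7 CPM in small pre-B control libraries. Its groups overlapped and its log2 fold change was -0.02 ± 0.09 (SE, edgeR adjusted p 0.899). Opa3 had 29.0, 32.2 and 27.2 CPM in the small pre-B KO libraries, against 27.0, 29.3 and 27.2 CPM in small pre-B control libraries, and its groups overlapped too, with a log2 fold change of 0.08 ± 0.10 (SE, edgeR adjusted p 0.657). Ercc2 and Opa3 had the smallest standard errors of the 7 genes.

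The median log2 fold change of the 7 genes in small pre-B cells was 0.08, against 0.05 over the 20 other tested genes of the stretch and 0.01 over all tested genes. Of all tested genes 3.02% passed the edgeR test and 24.7% had an unadjusted p under 0.05. Of the 20 other genes of the stretch, 0 passed and 5 had an unadjusted p under 0.05. They ranged from -2.91 for Fosb, an immediate early gene with 109 CPM in small pre-B control 3 and at most 8.30 CPM in each other library, to 1.21 for Six5, and without control 3 the value of Fosb was 0.67. Xist RNA was high in small pre-B KO 1 and 2 and in no control library, so sex and genotype are partly confounded in this contrast. Leaving out KO 1 and 2 left 1 KO library, so only effect sizes are given. The log2 fold change was then 0.78 for Klc3, 0.55 for Vasp, 0.67 for Eml2, -0.995 for Gpr4, -0.03 for Opa3, -0.205 for Ercc1 and -0.033 for Ercc2. T cell markers also differed between the small pre-B groups (6 of 10 passed the edgeR test, all higher in KO libraries, where 1.89% of all tested genes were called higher), with a summed level of 57.5 to 95.1 CPM in KO libraries and 7.42 to 18.5 CPM in control libraries, and their part in the levels of the 7 genes was not tested.

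Small pre-B control against pro-B control shows the stages without the knockout. It shares its libraries with both KO contrasts, and every library of a cell type may have been handled together, so stage and handling cannot be told apart. Vasp averaged 124 ± 26.2 CPM in small pre-B control libraries (SD, n = 3) and 212 ± 6.06 CPM in pro-B control libraries (SD, n = 2), and fell with a log2 fold change of -0.78 ± 0.17 (SE, edgeR adjusted p 0.00408). Eml2 averaged 14.1 ± 6.47 CPM in small pre-B control libraries and 33.2 ± 0.611 CPM in pro-B control libraries, and fell with a log2 fold change of -1.24 ± 0.33 (SE, edgeR adjusted p 0.0114). Opa3 averaged 27.9 ± 1.29 CPM in small pre-B control libraries and 36.6 ± 1.92 CPM in pro-B control libraries, and fell with a log2 fold change of -0.40 ± 0.12 (SE, edgeR adjusted p 0.0167). The repair genes did not pass: the log2 fold change was 0.20 ± 0.15 for Ercc1 (SE, edgeR adjusted p 0.277) and 0.15 ± 0.10 for Ercc2 (SE, edgeR adjusted p 0.201).

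Of the 5 genes tested between the stages, 3 passed and all of these were lower in small pre-B cells, where 55.4% of all tested genes were called and 29.4% were called lower. The share called in either direction is close to the background. Leaving out pro-B control 2 ended the calls of Eml2 (edgeR adjusted p 0.0553) and Opa3 (0.0536), leaving out pro-B control 1 ended that of Opa3 (0.121), and a fit of the compared groups alone ended that of Eml2 (0.0552). With the title numbers as a replicate block all 3 calls ended, that of Vasp included (edgeR adjusted p 0.069). The stages share no title number, so the block fit cannot separate stage from number, and nothing is read from the calls lost in it. Gpr4 and Klc3, which were chosen on values that include the pro-B controls, are described without a test. Gpr4 averaged 1.25 ± 1.04 CPM in small pre-B control libraries (SD, n = 3) and 6.41 ± 0.495 CPM in pro-B control libraries (SD, n = 2), a log2 fold change of -2.29, which lay between -3.29 and -1.96 in the alternative fits. Klc3 averaged 13.1 ± 2.04 CPM in small pre-B control libraries and 2.04 ± 0.241 CPM in pro-B control libraries, a log2 fold change of 2.68. The 2 genes chosen together thus lay on opposite sides between the stages. Myeloid marker sums were 104 to 264 CPM in small pre-B control libraries and 6308 and 6489 CPM in pro-B control libraries, and the part of those cells in the stage differences was not tested.

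Set per kilobase of exon, which allows levels of different genes to be compared, Vasp was the most abundant of the 7 in every group, with group means of 126 CPM per kb in pro-B KO, 94.3 in pro-B control, 71.2 in small pre-B KO and 54.9 in small pre-B control libraries. Gpr4 changed its place in this order: it averaged 22.9 CPM per kb in pro-B KO libraries, next after Vasp, and 2.22 CPM per kb in pro-B control libraries. In small pre-B cells Gpr4 was the lowest of the 7, with 0.222 CPM per kb in KO and 0.432 CPM per kb in control libraries. Klc3 averaged 5.54 CPM per kb in pro-B KO and 1.15 CPM per kb in pro-B control libraries, and 11.5 CPM per kb in small pre-B KO and 7.37 CPM per kb in small pre-B control libraries. It was the lowest of the 7 in both pro-B groups. The other 4 genes, Eml2, Opa3, Ercc1 and Ercc2, lay between 6.10 and 16.5 CPM per kb in every group mean. Dividing the same CPM by only the 1199 exon bases that Klc3 shares with no other gene, without recounting reads, gave 8.24 and 1.70 CPM per kb for Klc3 in pro-B KO and pro-B control libraries, and 17.1 and 10.96 CPM per kb in small pre-B KO and small pre-B control libraries. That length was chosen after the data were seen.

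Over all 4 groups the 7 genes followed different orders. Gpr4 was highest in pro-B KO libraries, then in pro-B control libraries, and the small pre-B groups did not differ beyond their spread. Klc3 ran from small pre-B KO through small pre-B control and pro-B KO to pro-B control, with no overlap between neighbours in that order. Vasp ran from pro-B KO through pro-B control and small pre-B KO to small pre-B control, also with no overlap, and Eml2 in the same order with overlap between the small pre-B groups. Opa3 was highest in pro-B control libraries, while pro-B KO overlapped with small pre-B KO and small pre-B KO with small pre-B control. Ercc1 was highest in small pre-B control libraries, which overlapped with pro-B control, and lowest in pro-B KO libraries. Ercc2 was lowest in pro-B KO libraries, followed by pro-B control, and its small pre-B groups overlapped.

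The families of these genes give their context. Among receptors grouped as proton-sensing, the log2 fold changes in pro-B KO libraries were 3.36 for Gpr4, -0.21 for Gpr65 and -0.08 for Gpr132. Per kilobase, Gpr132 averaged 29.8 ± 2.14 CPM per kb in pro-B KO and 31.4 ± 4.37 CPM per kb in pro-B control libraries (SD, n = 2 each), so that Gpr4 at 22.9 CPM per kb in pro-B KO libraries lay between it and Gpr65 at 10.4 CPM per kb. In small pre-B cells 0 of the 9 listed receptors and G proteins passed the edgeR test for the knockout (3.02% of all tested genes did). Their median log2 fold change was 0.13. The smallest p-values there belonged to Gnas, the G protein alpha subunit that raises cyclic AMP, at 0.63 ± 0.21 (SE, edgeR adjusted p 0.121) and Gpr132 at 0.93 ± 0.34 (SE, edgeR adjusted p 0.139). Between the stages 7 of the 8 genes other than Gpr4 fell and Gna13 rose, where 29.4% of all tested genes were called lower and 55.4% in either direction. Leaving out either pro-B control library left 5 of these 8 calls.

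Of the 4 kinesin light chains, Klc1 was the most abundant in every group, at 32.1 and 30.6 CPM per kb in pro-B KO and pro-B control libraries and 44.5 and 43.2 CPM per kb in small pre-B KO and small pre-B control libraries. The log2 fold changes in pro-B KO libraries were 2.27 for Klc3, 0.07 for Klc1, 0.31 for Klc2 and -0.26 for Klc4. In small pre-B cells they were 0.64 for Klc3, 0.04 for Klc1, 0.29 for Klc2 and -0.22 for Klc4. None of the 9 tested kinesin-1 chains and cargo adaptors passed the edgeR test in small pre-B cells (0 of 9, median 0.04), where 3.02% of all tested genes did. After Klc3 the smallest p-values were those of the heavy chains Kif5a at 1.05 ± 0.37 (SE, edgeR adjusted p 0.132) and Kif5c at 1.21 ± 0.47 (SE, edgeR adjusted p 0.162) and of Klc2 (edgeR adjusted p 0.157). The next were Kif5b at -0.46 ± 0.20 (SE, edgeR adjusted p 0.194) and Mapk8ip1, a cargo adaptor, at -1.28 ± 0.59 (SE, edgeR adjusted p 0.218), with the opposite sign to Klc3.

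**Figure D4:**
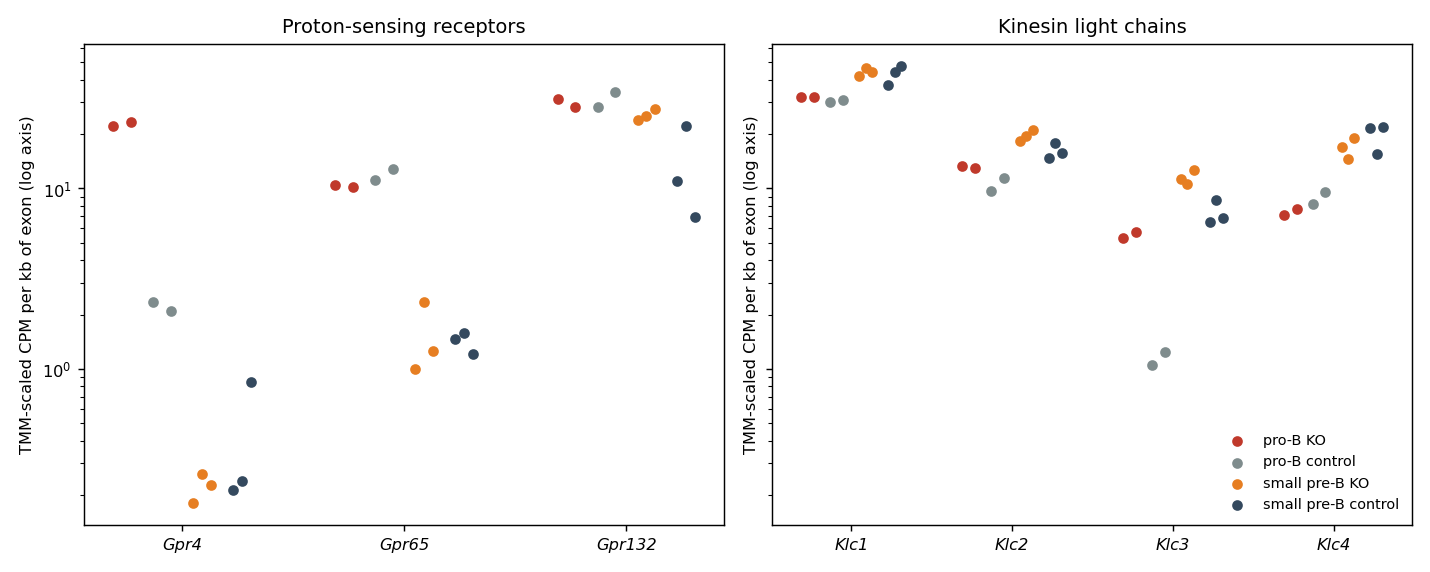
Levels of Gpr4, Gpr65 and Gpr132 (left) and the 4 kinesin light chains (right) in each library, in TMM-scaled CPM per kilobase of exon on a log axis, with 1 point per library. Gpr4 spans the widest range of these receptors, with group means from 22.9 to 0.222 CPM per kb, and Klc3 that of the light chains, from 11.5 to 1.15 CPM per kb.

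Among 29 genes of nucleotide excision repair, Ercc6, which couples repair to transcription, fell in small pre-B KO libraries with a log2 fold change of -0.76 ± 0.15 (SE, edgeR adjusted p 0.0414), and no other passed, Ercc1 and Ercc2 included. For this list and those that follow, the share of all tested genes called in small pre-B cells was 3.02%. The call of Ercc6 held in 7 of the 19 alternatives, and leaving out any library other than small pre-B control 2 ended it (edgeR adjusted p of 0.0524 to 0.133). Next came Ercc4, which forms the nuclease with ERCC1, at -0.36 ± 0.10 (SE, edgeR adjusted p 0.0858), about the same size as Ercc1. The list's median was -0.02. In pro-B cells 12 of the 29 had both KO libraries below both controls (28.1% of all tested genes) and 4 had both above (27.4%), with a median of -0.06. Of the 9 Ena/VASP proteins and partners 0 passed in small pre-B cells (median 0.38). Fyb, an adaptor that binds VASP-family proteins, had 1.73 ± 0.56 there (SE, edgeR adjusted p 0.109; 0.95 without small pre-B KO 2) and Zyx, a focal adhesion protein, 1.02 ± 0.41 (SE, edgeR adjusted p 0.171). Between the stages 7 of the 9, Vasp among them, fell, where 29.4% of all tested genes were called lower. Of the 5 tested EML genes, Eml6 fell in small pre-B KO libraries (log2 fold change -3.25 ± 0.43, SE, edgeR adjusted p 0.0251) and Eml2 did not pass. The call of Eml6 held in 10 of the 19 alternatives, and leaving out either small pre-B control 2 or 3, or small pre-B KO 3, kept it, while leaving out any other library ended it (edgeR adjusted p of 0.0582 to 0.0677). Of 10 genes of mitochondrial shape 0 passed in small pre-B cells, with a median of -0.08 beside 0.08 for Opa3.

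Last, the genes whose pattern over the 10 libraries was most like that of Gpr4 and of Klc3 were taken by Pearson's r of log2 CPM among 12968 genes. The libraries share group, stage and depth, so r is a description here. For Gpr4 they were Ano10 (r 0.982), Slc32a1 (0.978), Gpr126 (0.976), Calml3 (0.974) and Mapkapk3 (0.972). Ano10 averaged 40.7 ± 5.26 CPM in pro-B KO and 26.4 ± 1.998 CPM in pro-B control libraries (SD, n = 2 each), a smaller step than that of Gpr4, and Slc32a1, Gpr126 and Calml3 averaged at most 1.195 CPM in any group. For Klc3 they were Unc5cl (r 0.971), Cysltr1 (0.960), Csnk1e (0.960), Dbt (0.953) and Ppargc1a (0.949). Unc5cl averaged 8.67 ± 1.23 CPM in pro-B KO and 4.48 ± 0.504 CPM in pro-B control libraries (SD, n = 2 each), and 14.9 ± 1.29 CPM in small pre-B KO and 10.1 ± 0.648 CPM in small pre-B control libraries (SD, n = 3 each), the same order of groups as Klc3. None of these 10 genes lies on chromosome 7.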

How the data were processed

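Raw read counts per gene were deposited for each library, made by the authors with featureCounts 1.4.3-p1 over exons of an mm10 annotation, per the file headers, with no strand option, although the labels name a kit that keeps the strand. The deposited tables also hold each gene's summed exon length. CASAVA 1.82, STAR and mm9 are named in the submitters' processing notes, but the coordinates in the tables are mm10. Samples of other sorts or genotypes that the series names (pre-B cells, OcaB KO, double KO) were not analysed here.

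Total counts were 17805507 to 52127004 per library. Genes were kept by filterByExpr (minimum count 10, minimum total 15, 14161 genes), scaled by TMM, and fitted with a mean per group over all 10 libraries in edgeR 4.0.16 (R 4.3.3, robust quasi-likelihood F-test, two-sided). Benjamini-Hochberg adjustment covered the 14161 genes, and calls needed an adjusted p below 0.05. CPM values were computed with TMM factors, with the SD taken between libraries. The prior count was 0.125 for fitted log2 fold changes and 2 for likeness. The fit was tested on simulated data. Named genes are the 7, their direct neighbours, the genes of each family with the smallest small pre-B p, and the 5 most like Gpr4 and Klc3. Further values singled out (Fosb, Six5, Nkpd1 and marker genes) were chosen after their values were seen. The results of some single genes of the lists are not reported here. The members and lists were chosen with earlier results of these data known. Alternatives were DESeq2 1.42.0, limma-voom (limma 3.58.1), other scalings and filters, a replicate block, the compared groups alone and leaving out libraries. A floor of 3 counts covers only counting error, because reads that carry no molecular identifier may be copies of 1 molecule.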

Additional observations from a re-analysis of the deposited data

How the results depend on the processing

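In small pre-B cells 428 genes were called. The fit without small pre-B KO 1 and 2 left 1 KO library, so its count is not given. The count was 1852 with the DESeq2 Wald test and 0 with the compared groups alone. Leaving libraries out in turn gave 1 without small pre-B control 1, 1667 without small pre-B control 2 and 4 to 280 without each of the others. The cause was not tested. With the title numbers as a replicate block the count was 153. The stage calls among the 5 tested genes were then 0, with edgeR adjusted p of 0.069 for Vasp, 0.0623 for Eml2 and 0.0552 for Opa3. Same-numbered small pre-B libraries correlated at 0.102, 0.155 and 0.045, and although each correlated best with its own number, a hint from the data, the numbers were not taken as pairs because 1 value was below 0.1. That value, 0.045, is the one with small pre-B control 3, whose file header carries another number than its title. Whether the libraries are paired is therefore not settled. Pro-B and small pre-B libraries share no title number, so the block fit cannot separate stage from number. It therefore cannot show whether the stage calls depend on pairing, and nothing is read from the calls lost in it.

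Of the 7 genes, 1 was called in small pre-B cells with the DESeq2 Wald test, and 0 to 1 when libraries were left out. Stage calls ranged from 1 to 3 when libraries were left out. Opa3 turned to -0.027 without small pre-B KO 1 and 2, and Ercc2, at -0.02, ranged from -0.053 to 0.03 when libraries were left out, with 0.03 without small pre-B control 1. The other 5 genes kept their sign in small pre-B cells in all 19 alternatives, as did all 7 between the stages. For Gpr4 the kept sign is no support for a fall, since its value was -0.005 without small pre-B control 3. All 7 genes also kept their direction in pro-B cells, but there no gene had overlapping groups. Leaving out a library could therefore not turn a direction in pro-B cells, and nothing is read from this. With a prior count of 0.5, 3 of the 5 genes most like Gpr4 and 5 of the 5 most like Klc3 were again among the 5. Left-out libraries moved Klc1 (0.04 in small pre-B cells) between -0.052 and 0.118, and Fosb between -3.48 and 0.671. Family counts in small pre-B cells were at most 5 for repair genes and at most 2 for the 5 other lists in these alternatives. The number called over all genes varied widely between the same alternatives, as given above, so nothing is read from these counts. Depth limits Gpr4 in small pre-B cells, at 9 to 86 counts per library.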
